A study of Homo sapiens with 18 samples.

Results

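N-myristoylation is the attachment of the fatty acid myristate to the N-terminal glycine of a protein. The 5 genes described here make or assist this modification and were selected by symbol: the N-myristoyltransferases NMT1 and NMT2, the methionine aminopeptidases METAP1 and METAP2, and the acyl-CoA binding protein ACBD6. They are 5 of the 28266 genes in the count table, and all 5 were among the 14341 genes with enough counts to be tested. Poly(A) RNA came from IMR90 ER:RAS cells, a line of human lung fibroblasts that carries an oestrogen receptor and RAS fusion protein, which 4-hydroxytamoxifen (4OHT) activates to bring about oncogene-induced senescence (OIS). Senescent cells received 100 nM 4OHT and control cells received DMSO, the solvent. After 7 days both were given IMP1088 at 300 nM, DDD86481 at 1.5 µM or DMSO, and after 3 more days, on day 10, RNA was collected. Each of the 6 groups had 3 libraries, all from the same engineered line and with the fusion present in control cells too. The study describes its replicates as independent experiments.

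A new protein begins with methionine. Methionine aminopeptidases remove it when the second residue is small, which can expose a glycine, and an N-myristoyltransferase then transfers myristate from myristoyl-CoA to that glycine. NMT1 and NMT2 are paralogues with overlapping substrates, among them ARF GTPases and SRC family kinases, and both IMP1088 and DDD86481 inhibit their catalytic activity (NMTi). METAP1 and METAP2 are cytosolic aminopeptidases, and METAP2 is the target of fumagillin. ACBD6 binds acyl-CoA and stimulates NMT activity.

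Expression is given as CPM, TMM-scaled counts relative to library size, with the s.d. of 3 libraries. Log2 fold changes are given ± s.e. with a Benjamini-Hochberg adjusted p from the quasi-likelihood F test of edgeR, and a gene was called at an adjusted p under 0.05. Library totals ran from 16143716 to 23189950 counts, and 3 counts, the most that an observed 0 allows, came to between 0.121 and 0.187 CPM. All 6 lung fibroblast markers were above that floor in every library, with summed levels of 20602 to 32910 CPM in control libraries and 11313 to 16727 CPM in senescent libraries. These markers did not move together: between control (DMSO) and senescent (DMSO) cells the mean of VIM went from 5035 to 11681 CPM, that of COL1A2 from 7319 to 708 CPM and that of COL3A1 from 3701 to 296 CPM. Summed leukocyte markers, of which only CD68 was above the floor in every library and CD3E in none, ran from 15.0 to 24.1 CPM in control and from 91.3 to 164 CPM in senescent libraries. The 3 endothelial markers summed to between 1.05 and 3.79 CPM in control and between 5.40 and 10.6 CPM in senescent libraries, and the 4 epithelial markers to at most 1.49 CPM in any library, with KRT5 and SFTPC at or under the floor throughout. The part of these shifts in the results below was not tested, and in bulk RNA a smaller number of cells of one kind and less RNA per cell cannot be told apart. Control (DMSO) replicate 3 stood apart on the third principal component, scoring 57.3 against 14.8 and 27.8 for the other two libraries of its group, and results that rest on it are given with and without it.

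The NMT1 and NMT2 promoters are shown because the transcripts of the paralogues behaved differently in this experiment. Each sequence covers the 250 bases upstream of the transcription start in RefSeq on GRCh38.p14, 5′ to 3′ on the strand of the gene. Capitals mark the GC box GGGCGG, the core of the motif bound by SP1 family factors, on either strand.

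NMT1, chr17:45061067-45061316, plus strand: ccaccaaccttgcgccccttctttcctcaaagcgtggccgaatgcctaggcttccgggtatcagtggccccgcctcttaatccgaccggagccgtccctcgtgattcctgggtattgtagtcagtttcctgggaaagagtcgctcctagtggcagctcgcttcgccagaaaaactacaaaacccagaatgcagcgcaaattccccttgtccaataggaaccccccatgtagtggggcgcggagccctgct

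NMT2, chr10:15168694-15168943, minus strand: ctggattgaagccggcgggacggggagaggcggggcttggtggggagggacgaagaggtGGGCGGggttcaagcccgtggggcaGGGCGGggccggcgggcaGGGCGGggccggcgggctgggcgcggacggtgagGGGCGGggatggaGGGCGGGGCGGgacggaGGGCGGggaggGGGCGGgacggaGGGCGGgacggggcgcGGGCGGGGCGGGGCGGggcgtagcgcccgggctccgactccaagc

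The NMT2 window had a GC content of 82.0% and 12 GC boxes, counting matches that overlap, whereas the NMT1 window had 57.6% and none. The median GC content was 58% over 35116 human promoters of the same length, 98.3% of which had a lower GC content than NMT2 and 48.1% a lower one than NMT1. GGGCGG occurred in 42.6% of all promoters. The NMT1 window held 1 match to CCAAT, a sequence found in 32.0% of promoters, and NMT2 held none. The windows of METAP1 and ACBD6 had 84.4% and 72.0% GC with 6 and 2 GC boxes, and METAP2 was not analysed here. Of the other motifs searched on both strands, TATAAA (10.7% of promoters) and TTTNNCGC (5.92%) were in none of the 4 windows, and TGACG (21.2%) had 1 match, in ACBD6. These matches describe the letters of the windows and not binding.

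Per kilobase of exon, METAP2 was the most abundant member and NMT2 the least. In control (DMSO) cells the levels were 40.3 ± 12.8 CPM per kb for METAP2 (chr12:95474152-95515839), 17.5 ± 0.97 for NMT1 (chr17:45061317-45109016), 11.7 ± 0.58 for METAP1 (chr4:98995721-99062809), 10.97 ± 2.41 for ACBD6 (chr1:180269653-180502577) and 6.12 ± 0.90 for NMT2 (chr10:15105700-15168693), with positions from RefSeq on GRCh38.p14. The place of ACBD6 in this order depends on the transcript model: its annotated exons add up to 7512 bases but its canonical transcript has 1293, and per kilobase of canonical transcript it was the highest of the 5 at 63.7 ± 14.0 CPM per kb, against 53.2 ± 16.9 for METAP2. Changes of a gene between groups do not depend on length. Exons of ACBD6 overlap those of LHX4 on the opposite strand over 24.8% of their length, but LHX4 had at most 6 counts in any library. NMT2 and RPP38 overlap over 7.26% on opposite strands, and RPP38 had a log2 fold change of -0.03 ± 0.16 in senescence (adjusted p = 0.89). METAP1 overlaps the pseudogene ABT1P1 over 11.6%, and that pseudogene was not analysed here. NMT1 and NMT2 shared no 75-base stretch, the read length stated in the study's methods.

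**Figure D1:**
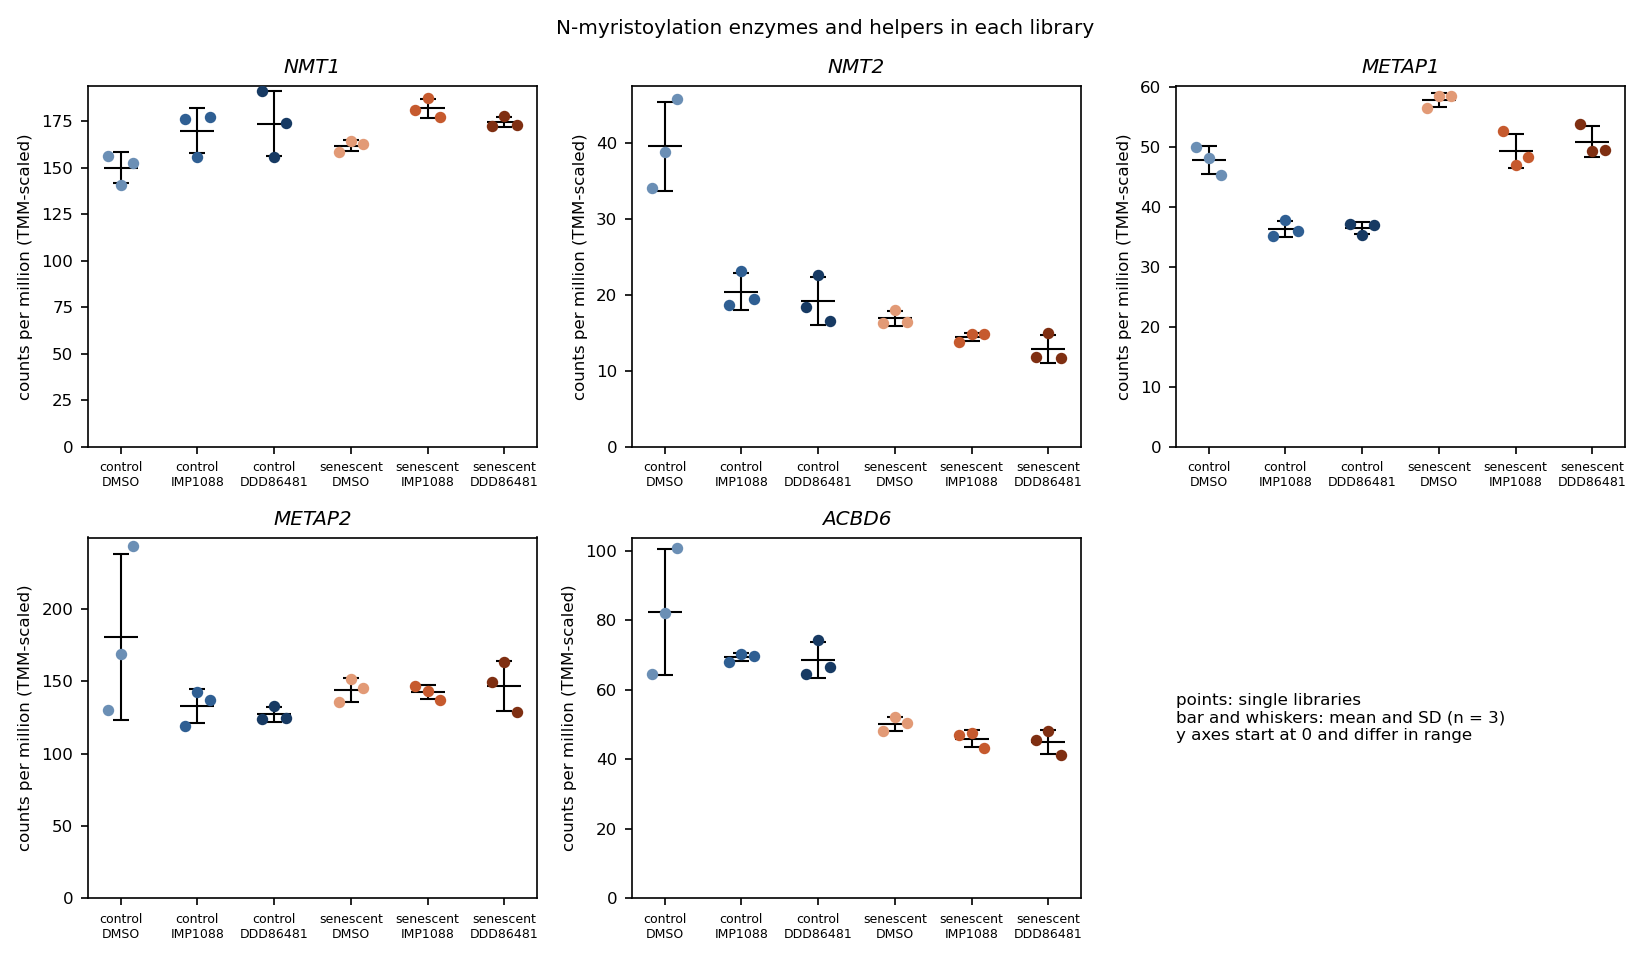
Level of each member in the 18 libraries. The y axes give TMM-scaled CPM from 0, points are single libraries, and bars with whiskers are the mean and s.d. of 3. NMT2 was highest in the 3 control (DMSO) libraries, at 34.1 to 45.8 CPM, and the METAP2 and ACBD6 values of that group spread most widely.

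NMT2 was the member that differed most between the groups. Control (DMSO) libraries had 34.1, 38.9 and 45.8 CPM (replicates 1, 2 and 3), control libraries with IMP1088 had 18.7, 23.2 and 19.4 CPM, and control libraries with DDD86481 had 18.4, 22.7 and 16.5 CPM. Senescent libraries had 16.3, 18.1 and 16.4 CPM with DMSO, 13.8, 14.8 and 14.8 CPM with IMP1088, and 11.9, 15.0 and 11.7 CPM with DDD86481. Every library outside the control (DMSO) group lay below every library in it, but the share of all genes that separate in this way was not counted. The order of group means ran from control (DMSO) at 39.6 ± 5.9 CPM through control with IMP1088 at 20.4 ± 2.4, control with DDD86481 at 19.2 ± 3.2, senescent (DMSO) at 16.9 ± 0.98 and senescent with IMP1088 at 14.5 ± 0.59 to senescent with DDD86481 at 12.9 ± 1.9. Neighbours in this order overlapped, except at the first step and between senescent (DMSO) and senescent with IMP1088.

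The first comparison asked how senescence without NMTi altered the members. Of the 14341 genes tested, 68.5% were called, 32.5% higher and 36% lower, so a call on its own is common here, and 3 of the 5 members were called. NMT2 fell by 1.22 ± 0.14 on the log2 scale (adjusted p = 1.22e-07), to 42.7% of its control level. ACBD6 fell by 0.72 ± 0.12 (adjusted p = 2.16e-05), and METAP1 rose by 0.27 ± 0.081 (adjusted p = 0.00548). NMT1 had a log2 fold change of 0.11 ± 0.084 (95% interval -0.06 to 0.29, adjusted p = 0.243) and METAP2 one of -0.33 ± 0.15 (adjusted p = 0.0571), and neither was called. The change of NMT2 was larger in size than that of 73.6% of all genes tested, the change of ACBD6 than that of 55.5% and the change of METAP1 than that of 24.9%. With upper quartile in place of TMM scaling the all-gene median shifted by -0.15 (log2). Under it METAP1 stood at 0.12 (adjusted p = 0.198), although its distance from the median of all genes was 0.32 under either scaling.

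The next comparisons asked what each inhibitor did to transcripts of its own target enzymes and their partners in control cells. With IMP1088, 33.7% of all genes were called, 16.3% higher and 17.4% lower, and 3 members were called, all lower. With DDD86481, 36.6% of all genes were called, 17.8% higher and 18.7% lower, and the 3 members called lower were again NMT2, METAP1 and METAP2. NMT2 fell by 0.95 ± 0.13 with IMP1088 (adjusted p = 2.03e-05), to 51.6% of its level with DMSO, and by 1.04 ± 0.14 with DDD86481 (adjusted p = 8.15e-06), to 48.5%. These falls exceeded in size the changes of 91.2% and 92.6% of all genes tested. NMT1, the paralogue targeted by the same inhibitors, stood at 0.18 ± 0.084 with IMP1088 (adjusted p = 0.105) and with DDD86481 at 0.21 ± 0.084 (adjusted p = 0.0521). The inhibitors were used at different doses, and both comparisons share the control (DMSO) libraries, so the values are set side by side and the compounds were not compared.

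In senescent cells the same inhibitors gave smaller differences in NMT2. With IMP1088, 44.4% of all genes were called, 20.6% higher and 23.9% lower, and METAP1 was the only member called. NMT2 had a log2 fold change of -0.23 ± 0.14 (95% interval -0.52 to 0.07, adjusted p = 0.208), although its 3 senescent libraries with IMP1088 all lay below the 3 with DMSO. How often the libraries of other genes separate in this way was not counted. With DDD86481, 43.2% of all genes were called, 20.1% higher and 23.1% lower, and NMT2 was the only member called, falling by 0.39 ± 0.14 on the log2 scale (adjusted p = 0.032). Leaving out 1 library removed that call in 5 of 6 fits, with an adjusted p of up to 0.11. For NMT1 the log2 fold changes were 0.17 ± 0.084 with IMP1088 (adjusted p = 0.113) and 0.11 ± 0.084 with DDD86481 (adjusted p = 0.316).

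The interaction term asks directly whether an inhibitor acted differently in the senescent state, by subtracting the effect in control cells from the effect in senescent cells. For NMT2 it was 0.72 ± 0.20 with IMP1088 (adjusted p = 0.0102) and 0.65 ± 0.20 with DDD86481 (adjusted p = 0.0175), so the fall with NMTi was smaller in senescent cells. NMT2 was the only member called in either interaction, where 26.2% and 30.3% of all genes were called. The call with DDD86481 was lost without senescent DDD86481 replicate 2 (0.52, adjusted p = 0.0613). Both terms use the control (DMSO) libraries. Without replicate 3 of that group, whose NMT2 level was the highest of all, both remained called.

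Senescent and control cells were also compared under each inhibitor, where 74.1% (IMP1088) and 74% (DDD86481) of all genes were called. Under IMP1088 NMT2 fell by 0.50 ± 0.14 (adjusted p = 0.00316) and under DDD86481 by 0.57 ± 0.14 (adjusted p = 0.00118). ACBD6 fell in both settings, by 0.59 ± 0.12 under IMP1088 (adjusted p = 0.000151) and by 0.61 ± 0.12 under DDD86481 (adjusted p = 0.000127). METAP1 rose in both, by 0.44 ± 0.082 under IMP1088 (adjusted p = 6.7e-05) and by 0.48 ± 0.082 under DDD86481 (adjusted p = 2.67e-05). In size METAP1 exceeded the changes of 33.1% and 35.5% of all genes tested, and NMT2 those of 37.1% and 41.7%. NMT1 and METAP2 were not called, and the log2 fold change of NMT1 under DDD86481 was 0.01 ± 0.084 (95% interval -0.17 to 0.18).

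**Figure D2:**
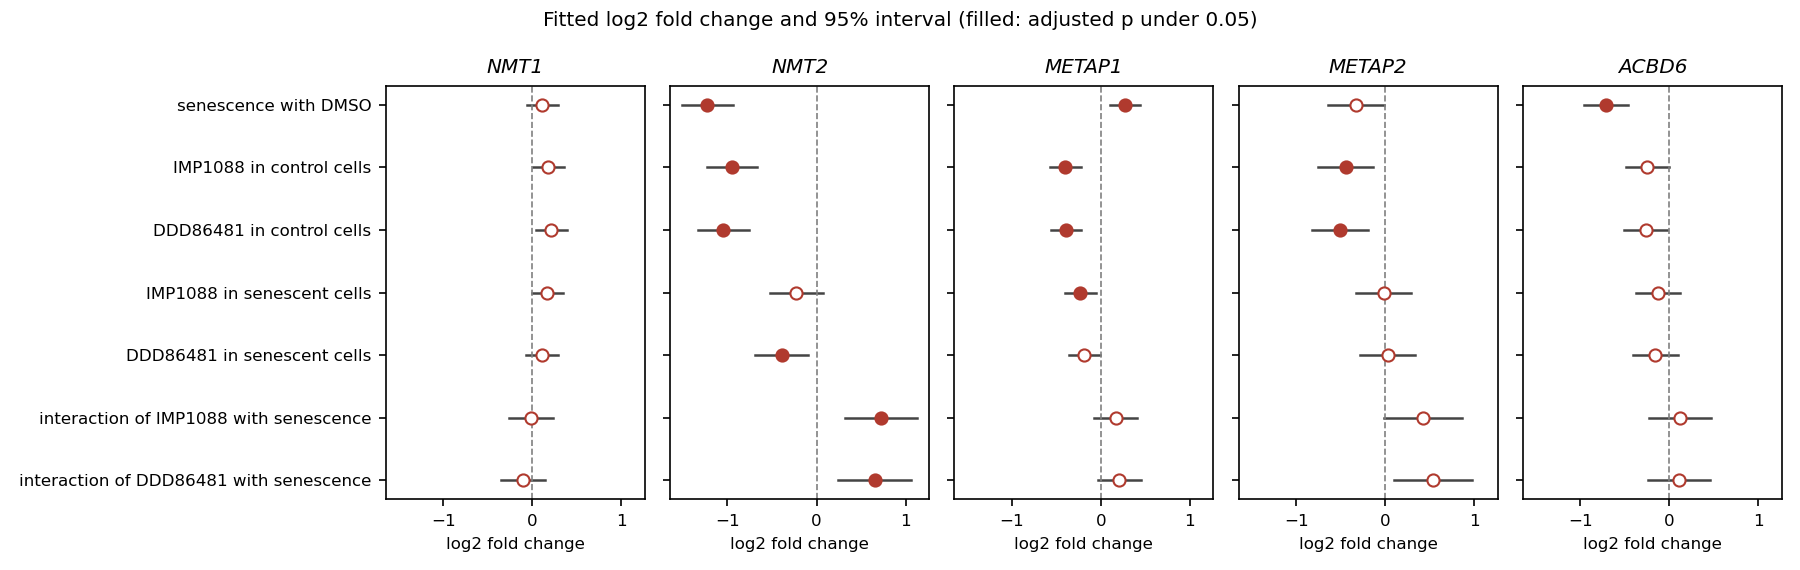
Fitted log2 fold changes of the 5 members (points) with 95% intervals not adjusted for multiple testing (lines) in 7 comparisons. Filled points had an adjusted p under 0.05. NMT2 was filled in every row except IMP1088 in senescent cells, and no NMT1 point was filled.

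NMT1 varied least among the members. Control libraries had 157, 141 and 153 CPM with DMSO, 176, 156 and 177 CPM with IMP1088, and 191, 156 and 174 CPM with DDD86481. Senescent libraries had 159, 164 and 163 CPM with DMSO, 181, 188 and 177 CPM with IMP1088, and 172.6, 177.9 and 173.2 CPM with DDD86481. All 3 senescent (DMSO) libraries lay above the control (DMSO) libraries, but by less than the fit distinguishes from 0, and the ranges of control libraries with and without NMTi overlapped. In senescent cells every NMT1 library with either inhibitor lay above every DMSO library, though neither difference was called by the edgeR fit of all libraries. How many of all genes separate in these ways was not counted. The difference with IMP1088 was called when only the groups compared were fitted (0.20, adjusted p = 0.00676), a fit that called 7841 of 13125 genes. The value with DDD86481 in control cells lay at the threshold: it was called with DESeq2's size factors (adjusted p = 0.046) and with the DESeq2 Wald test (adjusted p = 0.0215). In all it became a call in 3 of 6 alternative settings and in 2 of 6 fits without 1 library. Its log2 fold change there ran from 0.15 to 0.28, with a lowest adjusted p of 0.0171. The value with IMP1088 in control cells became a call in 1 of 6 fits without 1 library (adjusted p = 0.0499).

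The makeup of NMT transcripts differed between the groups. Per kilobase of exon, NMT2 went from 6.12 in control (DMSO) cells to 3.16 CPM per kb with IMP1088 and 2.97 CPM per kb with DDD86481, while the NMT1 mean went from 17.5 to 19.8 and 20.3 CPM per kb, differences of NMT1 that were not called. Per exonic length, NMT2 contributed 25.9 ± 3.12% of NMT1 plus NMT2 in control (DMSO) cells, 13.8 ± 2.30% with IMP1088 and 12.9 ± 2.84% with DDD86481. In senescent cells its share was 12.1 ± 0.49% with DMSO, 9.53 ± 0.40% with IMP1088 and 8.87 ± 1.04% with DDD86481. In all 5 comparisons of 3 against 3 libraries the shares did not overlap, giving an exact two-sided permutation p = 0.1, the smallest that this design allows, or 0.125 after adjustment over the 10 share comparisons made. Per kilobase of exon, the summed level of both paralogues was lowest in senescent (DMSO) cells, at 21.5 ± 0.47 CPM per kb. It was highest in control (DMSO) cells, at 23.6 ± 1.24 CPM per kb, with the other 4 groups between them. This order depends on the lengths used. Per kilobase of canonical transcript, NMT1 and NMT2 stood at 30.7 and 7.91 CPM per kb in control (DMSO) cells. In senescent cells with IMP1088 they stood at 37.3 and 2.89, which gives a higher sum than in control (DMSO) cells. Counted per canonical transcript length, the share in control (DMSO) cells was 20.5 ± 2.64%, and in senescent (DMSO) cells 9.25 ± 0.39%.

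**Figure D3:**
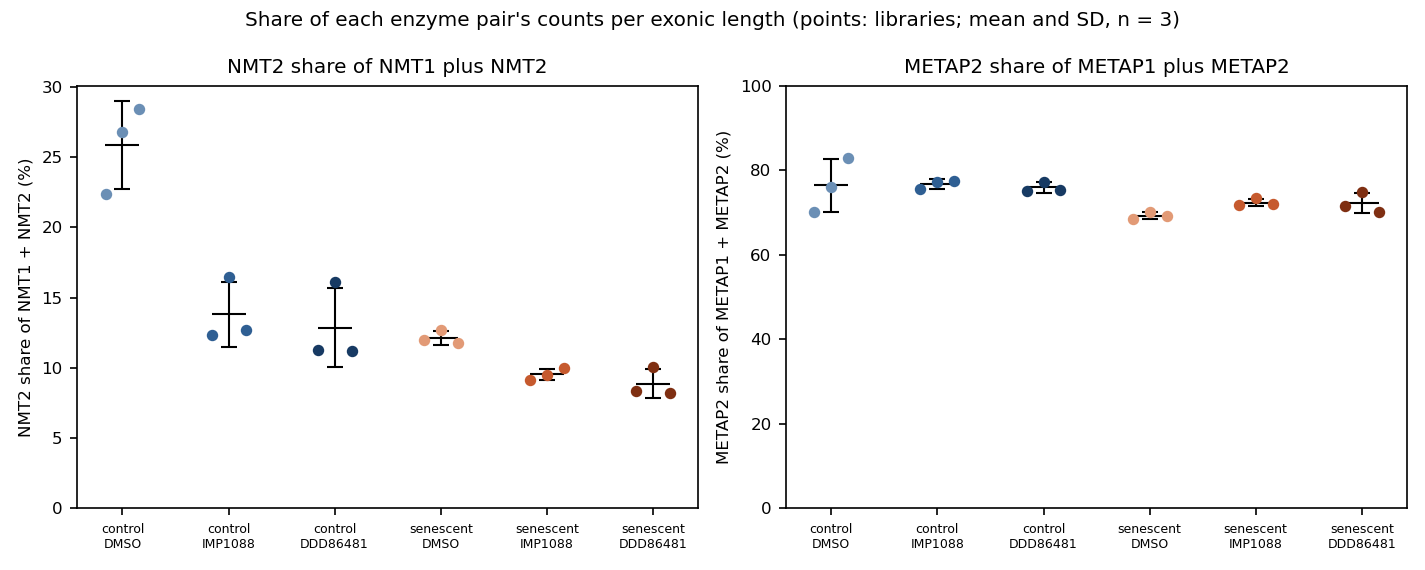
Share of NMT2 in NMT1 plus NMT2 (left) and of METAP2 in METAP1 plus METAP2 (right), in percent of counts per exonic length. Points are libraries, and bars with whiskers are the mean and s.d. of 3. The NMT2 share was 22.4 to 28.4% in the control (DMSO) libraries and at most 16.5% in any other.

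METAP1 differed in both directions. Control libraries had 49.98, 48.04 and 45.3 CPM with DMSO, 35.1, 37.8 and 35.9 CPM with IMP1088, and 37.1, 35.3 and 36.9 CPM with DDD86481. Senescent libraries had 56.4, 58.5 and 58.4 CPM with DMSO, 52.5, 47.01 and 48.3 CPM with IMP1088, and 53.8, 49.3 and 49.4 CPM with DDD86481. The 3 senescent (DMSO) libraries were the highest of the 18 and the 6 control libraries with NMTi the lowest. How many of all genes have their libraries in such an order was not counted. In control cells METAP1 fell by 0.40 ± 0.082 on the log2 scale with IMP1088 (adjusted p = 0.000903) and by 0.39 ± 0.082 with DDD86481 (adjusted p = 0.00101). These calls were kept under every alternative tried, with log2 fold changes between -0.45 and -0.36 for either inhibitor. In senescent cells it fell by 0.23 ± 0.081 with IMP1088 (adjusted p = 0.0277), a call lost without senescent (DMSO) replicate 2 or 3 and without senescent IMP1088 replicate 2 or 3, where the adjusted p reached 0.109. With DDD86481 the log2 fold change was -0.18 ± 0.081 (adjusted p = 0.0741). Neither interaction was called, at 0.17 ± 0.12 (95% interval -0.07 to 0.41) and 0.21 ± 0.12 (95% interval -0.03 to 0.45).

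METAP2 was dominated by the spread among control (DMSO) libraries. These had 130, 169 and 243 CPM, against 119, 142 and 137 CPM in control libraries with IMP1088 and 124, 133 and 125 CPM with DDD86481. Senescent libraries had 136, 151 and 145 CPM with DMSO, 147, 143 and 137 CPM with IMP1088, and 149, 163 and 129 CPM with DDD86481. The control (DMSO) range overlapped that of all 5 other groups, and its s.d. was 31.8% of its mean. METAP2 fell by 0.44 ± 0.15 with IMP1088 (adjusted p = 0.0267) and by 0.51 ± 0.15 with DDD86481 (adjusted p = 0.0118) in control cells, but without control (DMSO) replicate 3 it stood at -0.17 with IMP1088 (adjusted p = 0.26) and at -0.23 with DDD86481 (adjusted p = 0.109). The call with IMP1088 was also lost without control IMP1088 replicate 1 (-0.36, adjusted p = 0.12) or 3 (-0.45, adjusted p = 0.0581), and both calls were lost when only the groups compared were fitted (adjusted p = 0.162 and 0.0975). In senescence, leaving out the same library gave -0.05 (adjusted p = 0.664), whereas leaving out replicate 1 gave -0.52 (adjusted p = 0.000898) and leaving out replicate 2 gave -0.40 (adjusted p = 0.0421), both calls. Upper quartile scaling (-0.49, adjusted p = 0.00919) and no filter on low counts (-0.30, adjusted p = 0.0345) also called METAP2 lower in senescence. In senescent cells METAP2 stood at -0.02 ± 0.15 with IMP1088 (adjusted p = 0.947) and 0.03 ± 0.15 with DDD86481 (adjusted p = 0.893). Its interactions, 0.43 ± 0.21 (adjusted p = 0.137) and 0.54 ± 0.21 (adjusted p = 0.0588), were not called, but without control (DMSO) replicate 1 they were 0.62 (adjusted p = 0.00652) and 0.73 (adjusted p = 0.00176).

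METAP2 held most of the aminopeptidase pair per exonic length, 76.5 ± 6.38% in control (DMSO) cells and 69.3 ± 0.80% in senescent (DMSO) cells. The shares of these groups did not overlap (exact two-sided permutation p = 0.1, adjusted 0.125), but by a narrow margin: the lowest control library had 70.2% and the highest senescent one 70.1%. With NMTi in control cells the share was 76.8 ± 1.13% (IMP1088, exact permutation p = 1) and 75.97 ± 1.22% (DDD86481, exact permutation p = 0.8). In senescent cells with NMTi it was 72.4 ± 0.91% and 72.3 ± 2.44%, in both cases without overlap with senescent (DMSO) libraries (exact permutation p = 0.1, adjusted 0.125).

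ACBD6 separated senescent from control cells with every treatment. Control libraries had 64.5, 82.0 and 100.8 CPM with DMSO, 68.0, 70.2 and 69.8 CPM with IMP1088, and 64.5, 74.3 and 66.6 CPM with DDD86481. Senescent libraries had 48.1, 52.1 and 50.3 CPM with DMSO, 46.99, 47.6 and 43.1 CPM with IMP1088, and 45.6, 48.1 and 41.2 CPM with DDD86481. Each of the 9 senescent libraries lay below each of the 9 control libraries, but the share of all genes that separate in this way was not counted. In size, the fall of ACBD6 with DMSO was above the median change of all genes, 0.619 on the log2 scale. Its falls under IMP1088 and DDD86481 were below the medians of those comparisons, 0.718 and 0.723. Without control (DMSO) replicate 3, the highest library, the fall in senescence was 0.55 on the log2 scale (adjusted p = 4.93e-05). With NMTi the log2 fold changes were -0.25 ± 0.12 (IMP1088, adjusted p = 0.109) and -0.27 ± 0.12 (DDD86481, adjusted p = 0.0807) in control cells and -0.13 ± 0.12 (adjusted p = 0.409) and -0.16 ± 0.12 (adjusted p = 0.306) in senescent cells, none of them called. Without control (DMSO) replicate 1 both differences in control cells were called, at -0.40 (adjusted p = 0.00378) and -0.42 (adjusted p = 0.00239), and upper quartile scaling also called the one with DDD86481 (-0.33, adjusted p = 0.0428).

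**Figure D4:**
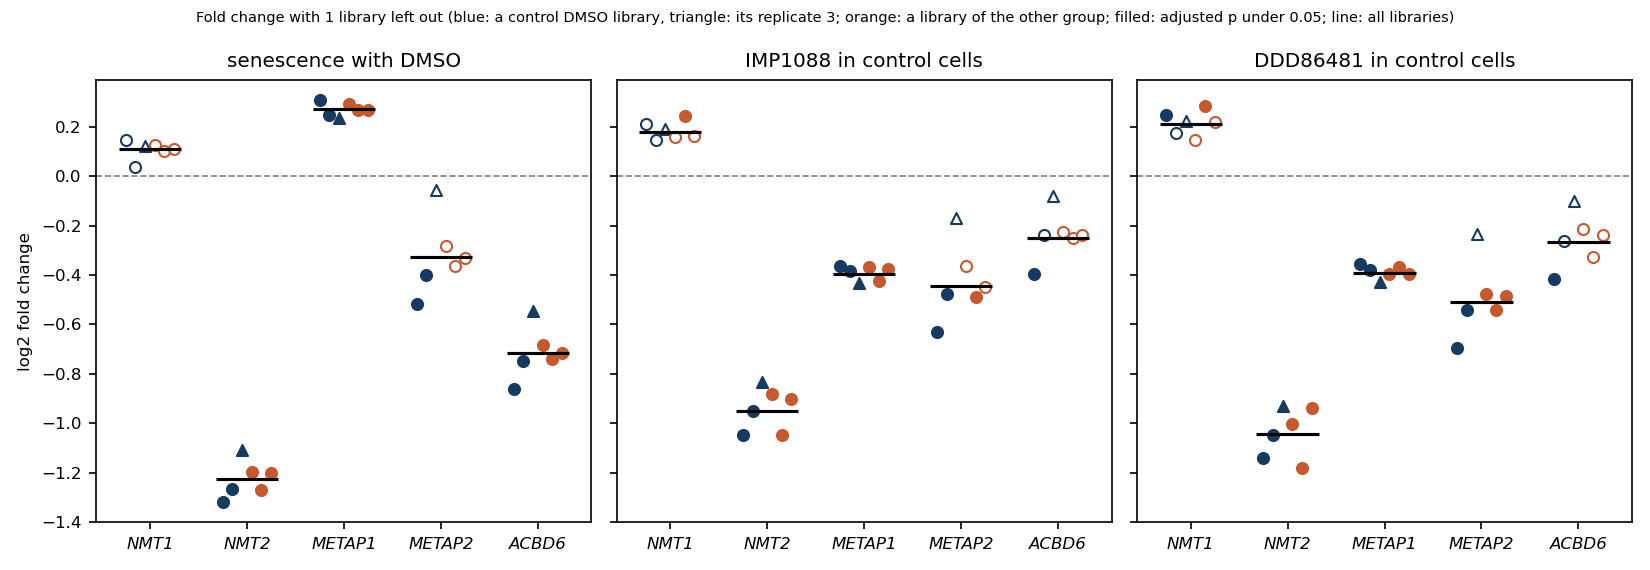
Log2 fold change of each member with 1 library left out (points) and with all libraries (black lines). Blue marks a control (DMSO) library left out, with a triangle for its replicate 3, orange a library of the other group, and filled points an adjusted p under 0.05. NMT2 stayed filled between -1.32 and -0.83 in all 3 panels, while METAP2 moved towards 0 without control (DMSO) replicate 3.

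Within groups, METAP2 and ACBD6 deviated together. Across the 18 libraries their log2 levels had a Pearson r of 0.38, and after removal of the group means one of 0.95, given as a description of libraries that share the wide control (DMSO) group. NMT2 and ACBD6 had 0.87 across libraries and 0.72 within groups, and NMT1 and NMT2 had -0.73 and -0.42. Over the same 18 libraries the genes most like NMT2 were LAYN (r = 0.96), DERA (0.96) and RRAS2 (0.96). Most like ACBD6 were C1orf54 (0.98), ANAPC13 (0.98) and ASB8 (0.98), and most like METAP1 were TUBB4B (0.98), ARHGAP18 (0.97) and KIFC3 (0.97). METAP2 was closest to UQCRB (0.95), ENY2 (0.95) and PDHB (0.94), and NMT1 to SYVN1 (0.90), FICD (0.89) and ISG20L2 (0.89). An r above 0.9 was reached by 679 genes for ACBD6 and 365 for METAP1, but by 108 for NMT2, 9 for METAP2 and none for NMT1.

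The other steps of N-terminal processing were examined in 43 genes of 5 lists, of which 40 could be tested. In senescence 17 were higher and 6 lower, or 57.5% called, less than the 68.5% of all genes. Of 8 tested genes that supply myristoyl-CoA, 5 rose and none fell, with a median log2 fold change of 0.67 against -0.05 over all genes. FASN, the fatty acid synthase, rose by 2.80 ± 0.24 (adjusted p = 1.90e-09), from 94.0 ± 38.6 to 654 ± 28.3 CPM. ACLY, which makes cytosolic acetyl-CoA, rose by 1.70 ± 0.16 (adjusted p = 8.21e-09). OLAH, a thioesterase that releases medium-chain fatty acids from the synthase, rose by 2.80 ± 0.40 (adjusted p = 3.42e-06) from a low level of 3 to 12 counts in control (DMSO) libraries to 28 to 40 counts. Of 4 tested relatives of ACBD6, 2 rose: DBI, the acyl-CoA binding protein, by 0.70 ± 0.16 (adjusted p = 0.000679) and the Golgi protein ACBD3 by 0.43 ± 0.080 (adjusted p = 8.05e-05).

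Of 15 other genes that act on or near nascent N termini, 4 rose and 6 fell in senescence, with a median of -0.15. METAP1D, the mitochondrial aminopeptidase and so not an enzyme of the cytosolic ribosome, fell by 2.21 ± 0.23 (adjusted p = 5.16e-08), from 6.35 ± 0.47 to 1.37 ± 0.47 CPM. The N-terminal acetyltransferase auxiliary subunits moved apart, NAA16 falling by 1.14 ± 0.13 (adjusted p = 1.48e-07) and NAA25 rising by 0.73 ± 0.10 (adjusted p = 1.99e-06). Of the 6 subunits of the CUL2 ligases that recognise an N-terminal glycine left without myristate, 4 rose and none fell. Their median was 0.36. Among all genes tested 68.5% were called in senescence, 32.5% higher and 36% lower, so calls in these lists are common. ELOB rose by 0.65 ± 0.19 (adjusted p = 0.00458), ELOC by 0.54 ± 0.12 (adjusted p = 0.000614) and the receptor ZER1 by 0.44 ± 0.10 (adjusted p = 0.000652), and ELOB, ELOC and CUL2 also serve other ligases. Of 7 genes for binding or removing myristoyl groups, 2 rose with a median of 0.10: the deacylase SIRT2 by 0.31 ± 0.087 (adjusted p = 0.0041) and ARL3, a GTPase that releases lipidated cargo, by 0.30 ± 0.12 (adjusted p = 0.034). The SIRT2 call was lost without control (DMSO) replicate 2 and the ARL3 call without control (DMSO) replicate 1 or 2 or senescent (DMSO) replicate 2 or 3, and both were lost under upper quartile scaling.

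In control cells 7 of the 40 were higher and 9 lower with IMP1088 (40% called, against 33.7% of all genes), and 6 were higher and 10 lower with DDD86481 (40%, against 36.6%). Without control (DMSO) replicate 3, 7 were higher and 5 lower with IMP1088, and 5 were higher and 4 lower with DDD86481, in fits that called 4069 and 4120 of 14493 genes. FASN rose by 0.97 ± 0.23 (adjusted p = 0.00257) with IMP1088 and 1.12 ± 0.23 (adjusted p = 0.000784) with DDD86481, the former not called when only the groups compared were fitted, and the acyl-CoA synthetase ACSL4 by 0.55 ± 0.10 (adjusted p = 0.000336) and 0.61 ± 0.10 (adjusted p = 0.00012). DBI fell with IMP1088 by 0.78 ± 0.16 (adjusted p = 0.00101) and with DDD86481 by 0.84 ± 0.16 (adjusted p = 0.000513). Both calls were kept under all 12 alternatives, with log2 fold changes from -0.92 to -0.52 (IMP1088) and from -0.98 to -0.58 (DDD86481). ACBD3 rose with IMP1088 by 0.38 ± 0.080 (adjusted p = 0.00113) and with DDD86481 by 0.41 ± 0.080 (adjusted p = 0.000598). ELOB fell with IMP1088 by 0.63 ± 0.19 (adjusted p = 0.0145) and with DDD86481 by 0.67 ± 0.19 (adjusted p = 0.00932), but without control (DMSO) replicate 3 it was not called, at -0.28 and -0.32.

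In senescent cells 12 were higher and 4 lower with IMP1088 (40% called, against 44.4% of all genes), and 11 were higher and 6 lower with DDD86481 (42.5%, against 43.2%). ACBD3, which was higher in each of the 9 comparisons except the 2 interactions, rose by 0.57 ± 0.080 (adjusted p = 8.26e-06) and 0.65 ± 0.080 (adjusted p = 1.75e-06). The acyl-CoA synthetase ACSL5 rose by 0.98 ± 0.14 (adjusted p = 1.45e-05) and 0.87 ± 0.14 (adjusted p = 5.83e-05). HDAC11, an enzyme that removes fatty acyl groups from lysines, rose by 0.81 ± 0.14 (adjusted p = 7.93e-05) and 0.78 ± 0.14 (adjusted p = 0.00013). The acetyltransferase subunits NAA15 (0.49 ± 0.092, adjusted p = 0.000211) and NAA35 (0.53 ± 0.087, adjusted p = 5.51e-05) rose with IMP1088, and ZYG11B, the other glycine receptor of the CUL2 ligases, fell by 0.43 ± 0.12 (adjusted p = 0.00811). ZYG11B had -0.41 ± 0.12 with DDD86481 (adjusted p = 0.0106), a call lost without senescent (DMSO) replicate 1 or senescent DDD86481 replicate 1.

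**Figure D5:**
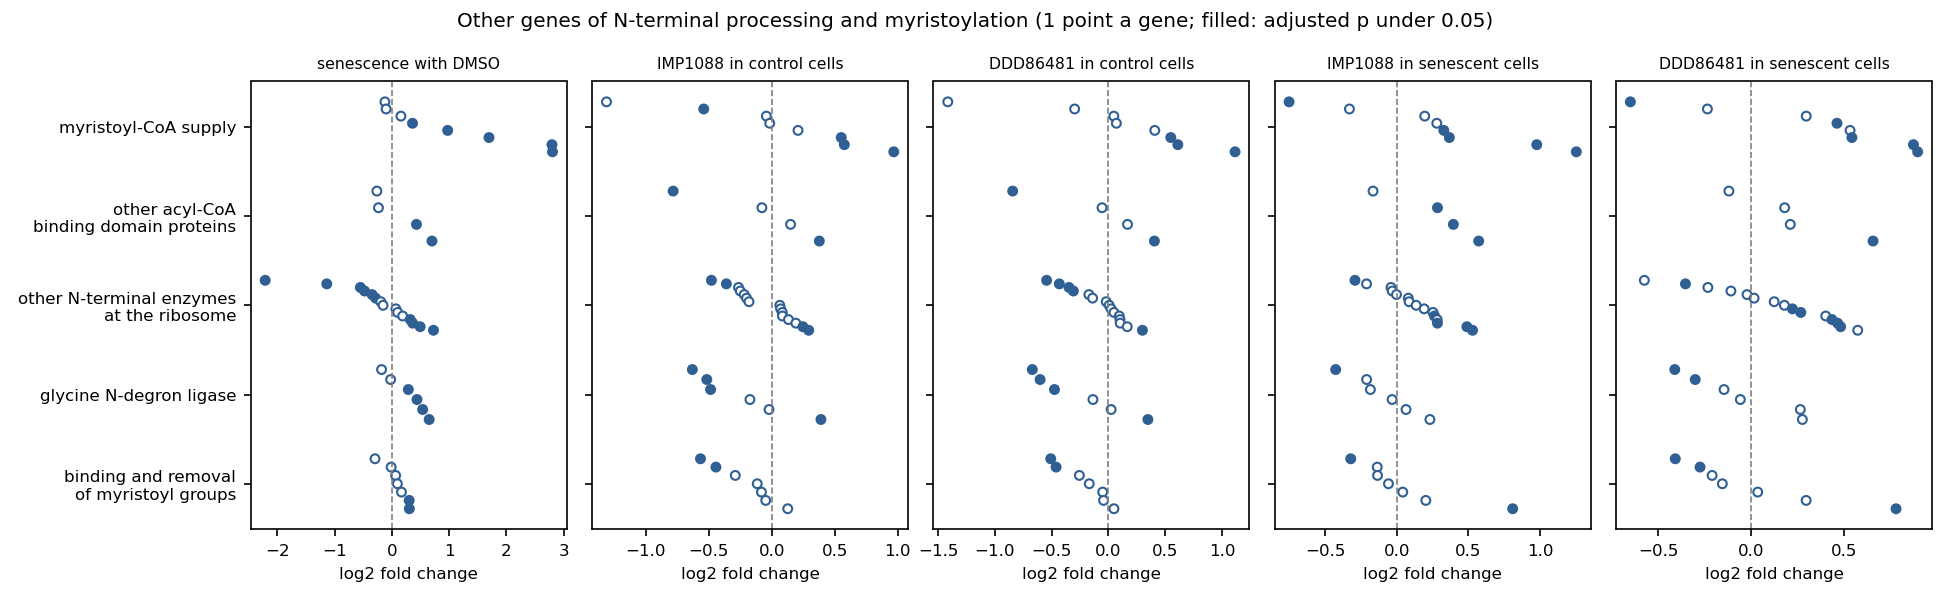
Log2 fold changes of the 40 tested genes of the 5 lists in 5 comparisons, 1 point a gene and filled where the adjusted p was under 0.05. The x axes differ in range. In senescence the supply genes reached 2.80, and with NMTi in control cells the filled points of the glycine N-degron ligase lay on both sides of 0.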

How the data were processed

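The deposited file is a table of raw read counts per gene made by the authors, with no normalization and 1 column for each of the 18 libraries. The submitters' processing notes name hg38, DRAGEN, STAR 2.7.8a and DESeq2 1.32.0, while the study's methods describe TopHat alignment to hg19 with Ensembl genes and a first-strand library setting, and its reporting summary names HTSeq, so the build and counter behind the table were not settled here. The methods give single-end reads of 75 bases from directional libraries.

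Counts were analysed with edgeR 4.0.16 in R 4.3.3: filterByExpr left 14341 of 28266 genes, which held 99.96% of counts, and 1 quasi-likelihood model with TMM scaling was fitted to the 6 groups with 12 residual degrees of freedom. P-values were adjusted by Benjamini-Hochberg over all genes tested, with a threshold of 0.05, and 95% intervals were not adjusted. The script was tested on simulated data. Shares of transcript pairs were compared by exact two-sided permutation tests. Alternatives were DESeq2 1.42.0 (size factors and Wald test), upper quartile scaling, no filter, a fit of the compared groups only, the replicate block and leaving out each library. Canonical transcript lengths, and the alternatives for the 5 pathway lists, were added after seeing the data. The standard errors and intervals of log2 fold changes come from the quasi-likelihood fit and include the spread among replicate libraries.

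The 5 members and the pathway lists were chosen with earlier results of these data known. Members were named in every comparison, together with the 3 genes most correlated with each member. From each list up to 3 called genes with the largest change were picked per comparison. Those picked are all given for senescence with DMSO and for the interactions, but only in part for the other comparisons. The list of N-terminal genes includes the mitochondrial METAP1D and PDF, the Golgi enzyme NAA60, and NACA and BTF3, which bind nascent chains. ACSL6, ACBD7 and NAA11 were too low to test. Of the groups compared here, same-numbered replicates deviated together, with every correlation over 0.1, in control DMSO and control IMP1088 libraries (0.39, 0.12 and 0.23). The same held between the IMP1088 and DDD86481 libraries of control cells (0.101, 0.27 and 0.13) and of senescent cells (0.117, 0.126 and 0.119), which were not compared with each other. Replicate numbers come from the labels. Gene positions and promoters are from RefSeq on GRCh38.p14, in which 4 of the 5 members had a promoter entry. Exonic lengths and overlaps are from GENCODE on GRCh37.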

Additional observations from a re-analysis of the deposited data

Results flagged for a closer look

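The effect of an inhibitor differed between senescent and control cells, by the interaction term of the edgeR fit, for NMT2 and for 10 (IMP1088) and 14 (DDD86481) of the 40 pathway genes. These are 25% and 35% of the pathway genes, beside 26.2% and 30.3% of all genes tested, and up to 3 genes a list with the largest values are given, 22 results in all with NMT2. Each value is the log2 effect in control cells subtracted from that in senescent cells. NMT2 had 0.72 (adjusted p = 0.0102) with IMP1088 and 0.65 (adjusted p = 0.0175) with DDD86481. Both inhibitors are compared with the same control and senescent DMSO libraries, so their values are not independent of each other.

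Among the genes that supply myristoyl-CoA, ACSL5 had 1.52 with IMP1088 (adjusted p = 4.05e-05) and 1.17 with DDD86481 (adjusted p = 0.000499). ACACA, the acetyl-CoA carboxylase, had -0.96 (adjusted p = 0.0373) and -1.06 (adjusted p = 0.0209), calls lost under 10 and 5 of 18 alternatives. OLAH had 2.57 (adjusted p = 0.0134) and 2.31 (adjusted p = 0.0255), but it had at most 4 counts in any control library with NMTi, so its fitted value depends on the prior count, and the calls were lost under 1 and 3 of 18 alternatives. Of the acyl-CoA binding proteins, DBI had 0.72 with DDD86481 (adjusted p = 0.0224). That call was lost under 5 alternatives, among them leaving out control (DMSO) replicate 3, and the lowest value over all alternatives was 0.46.

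Among the acetyltransferase subunits, NAA38 had 0.76 (adjusted p = 0.0268) and 0.95 (adjusted p = 0.00725), and NAA20 had 0.55 (adjusted p = 0.00909) and 0.58 (adjusted p = 0.00619). NAA60 had -0.46 with IMP1088 (adjusted p = 0.0151) and NAA10 had 0.61 with DDD86481 (adjusted p = 0.0113). The NAA38 call with IMP1088 was lost under 4 alternatives, one of them leaving out control (DMSO) replicate 3.

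Of the CUL2 ligase subunits, ELOC had 0.72 (adjusted p = 0.00505) and 0.74 (adjusted p = 0.00375), and ELOB had 0.95 with DDD86481 (adjusted p = 0.0122). ZER1 had -0.42 (adjusted p = 0.0329) and -0.41 (adjusted p = 0.0358), calls lost under 11 and 9 alternatives. HDAC11 had 1.10 (adjusted p = 0.00042) and 0.83 (adjusted p = 0.00371), called under all 18 alternatives with each inhibitor.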

How the results depend on the processing

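Of 600 recomputed log2 fold changes of members, 540 kept their direction and side of the threshold, 18 lost the call, 22 gained one and 20 changed sign, none of the last being called by the edgeR fit of all libraries. NMT2 stayed called under all 12 alternatives in senescence (-1.38 to -1.11), with IMP1088 (-1.05 to -0.83) and with DDD86481 (-1.18 to -0.93) in control cells. Upper quartile scaling turned NMT1 to -0.043 in senescence, to -0.0030 and -0.098 in senescence under IMP1088 and DDD86481, and to 0.040 in the IMP1088 interaction, and METAP2 to -0.0023 in senescence under IMP1088, since it moved the median of all genes. With only the compared groups fitted, METAP2 with IMP1088 in senescent cells was 0.019 and the NMT1 interaction with IMP1088 was 0.022. The cause of the other changes was not tested.

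The number of members called with IMP1088 in senescent cells was 1, but 0 without the filter, where METAP1 had -0.24 (adjusted p = 0.119), and 2 with only the compared groups. With DDD86481 in senescent cells it was 2 by the DESeq2 Wald test, and in the DDD86481 interaction 2 under upper quartile scaling and 2 without the filter. Among all genes, IMP1088 in senescent cells had 6374 of 14341 called by the edgeR fit of all libraries. There were 6331 of 21430 without the filter and 7841 of 13125 with only the compared groups. The Wald test with DDD86481 in senescent cells called 6332 of 14341. In the DDD86481 interaction 4444 of 14341 were called under upper quartile scaling and 4429 of 21430 without the filter.

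Leaving out each library in turn gave 0 to 1 members called with either inhibitor in senescent cells, 2 to 4 with IMP1088 in control cells, 2 (without control (DMSO) replicate 3) to 5 (without replicate 1) with DDD86481 in control cells, 1 to 2 in the IMP1088 interaction and 0 to 2 in the DDD86481 interaction. Of the 14493 to 14534 genes tested in these fits, 5454 to 5617 (IMP1088) and 5282 to 5812 (DDD86481) were called in senescent cells. In control cells 3505 to 5892 were called with IMP1088. With DDD86481 in control cells 3773 to 6317 were called, with 6317 without control (DMSO) replicate 1 and 4120 without replicate 3. The interactions called 2738 to 5242 (IMP1088) and 3419 to 5796 (DDD86481). The log2 fold changes that changed sign ranged from -0.056 to 0.022 for METAP2 with IMP1088 and from -0.051 to 0.12 for METAP2 with DDD86481 in senescent cells, from -0.045 to 0.062 and from -0.14 to 0.0052 for the NMT1 interactions with IMP1088 and DDD86481, from -0.048 to 0.27 and from -0.059 to 0.26 for those of ACBD6, and from -0.054 to 0.084 for NMT1 in senescence under DDD86481. The difference in METAP2 share in control cells ranged from -2.75 to 3.63 percentage points with IMP1088 and from -3.59 to 2.78 with DDD86481.

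The replicate block changed no member call between control DMSO and control IMP1088, the compared groups in which every same-numbered correlation was over 0.1. Differently numbered replicates were not correlated as a reference, so whether the numbers pair the samples was not settled. In the other comparisons the block changed 1 call, NMT1 with DDD86481 in control cells (0.21, adjusted p = 0.0484). The lowest count of a member in any library was 191, and the part of depth in these results was not tested.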
